A study of Mus musculus with 6 samples.

Results

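Integrin and laminin chains of the mouse that carry a gene name and a protein-coding biotype in the deposited table are described here. They were taken by name alone, as rows whose symbol begins with *Itga*, *Itgb* or *Lama*, *Lamb* or *Lamc* and ends in the chain's own number or letter. This gave 36 of 41721 rows, of which 35 are described, namely 17 integrin alpha chains, 8 integrin beta chains and 10 laminin chains. The rule uses names and no measured value. The RNA came from mouse aortic smooth muscle cells (MASMCs), which the study obtained with collagenase from abdominal aortas at 10 weeks of age and used between passages 4 and 8. One genotype was Pdk4fl/fl, in which loxP sites flank exons 4 to 6 of *Pdk4*, a kinase that restrains the pyruvate dehydrogenase complex. The other was Pdk4SMKO, the same floxed allele with a tamoxifen-inducible Cre recombinase under the *Myh11* promoter, a promoter of smooth muscle cells. Both genotypes received tamoxifen according to the study. The floxed alleles, the tamoxifen and the Ang II (angiotensin II, a vasoconstrictor peptide) were thus shared and Cre was not. The cells of all 6 libraries, 3 per genotype, were treated with Ang II, at 1 μM for 48 h where the study states its culture treatment. No untreated library and no library with Cre but without floxed *Pdk4* was analysed here. The study calls the 3 libraries of a genotype biological replicates. Neither it nor the labels say whether they came from separate mice or from separate cultures, and the p-values below measure the spread between these libraries.

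Integrins are transmembrane receptors made of an alpha and a beta chain. Outside the cell they bind matrix proteins such as fibronectin, collagens and laminins, and inside it they connect to actin through talin, kindlin and vinculin, so that they carry force and signal in both directions. Laminins are secreted trimers of an alpha, a beta and a gamma chain that build the basement membrane, the thin sheet of matrix that surrounds each smooth muscle cell of the arterial media. Which chains a cell transcribes bounds which receptors and which trimers it can assemble, since an alpha chain pairs with few beta chains and few laminin combinations form.

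The libraries held between 16526044 and 22481670 counts, and a count of 3, the floor used here for a gene without detectable signal, equalled 0.132 to 0.227 CPM. CPM (counts-per-million after TMM scaling) is the scale of all levels below unless a level is said to be per length. Intervals and floors cover counting error alone. *Pdk4* was at 38.0, 35.1 and 31.9 CPM in the Pdk4fl/fl and 4.83, 9.06 and 6.92 CPM in the Pdk4SMKO libraries. *Xist*, the RNA of the inactive X chromosome in female cells, was at 0.200, 0.220 and 0.378 CPM in Pdk4fl/fl and at 26.8, 17.3 and 15.7 CPM in Pdk4SMKO libraries. The study describes its mice as male, and no Y-linked gene is in the table. It also states that the *Myh11*-Cre transgene is Y-linked, so that male offspring alone carry it. The *Xist* level of the Pdk4SMKO libraries does not match that description, and the reason was not tested. The genotypes differed widely, with a correlation of log2 CPM of at least 0.981 within and at most 0.748 between them, across genes, which are not independent replicates. Of the smooth muscle markers, *Acta2* was abundant in both genotypes (188 to 268 CPM in Pdk4fl/fl and 621 to 768 CPM in Pdk4SMKO), whereas *Myh11* was low in both (0.533 to 0.757 CPM and 2.19 to 2.72 CPM) and *Tagln*, *Cnn1* and *Smtn* were lower in Pdk4SMKO (4 of 8 markers higher and 3 lower). All 7 tested of 8 mesothelial markers were higher in Pdk4SMKO, where the list summed to between 723 and 1325 CPM against 74.2 to 99.99 CPM in Pdk4fl/fl, with *Msln* at 292 to 610 CPM against 4.94 to 7.42 CPM. The endothelial list summed to 17.4 to 26.3 CPM in Pdk4fl/fl and 2.84 to 5.66 CPM in Pdk4SMKO (3 of 3 tested lower). The adventitial fibroblast list summed to 121 to 148 CPM and 284 to 613 CPM (3 of 6 tested higher, 1 lower) and the Schwann cell list to 16.4 to 22.1 CPM and 40.6 to 44.0 CPM (1 of 3 tested higher). The part of other cell types in the results below was not tested. In bulk RNA, more cells of a type and more RNA of a gene per cell cannot be told apart. The loss of *Pdk4* cannot be told apart from any other difference that all libraries of a genotype share, the source of the cells included.

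Integrin and laminin chains were more often higher than lower in Pdk4SMKO cells. Of the 35 chains, 30 passed edgeR's filter on low counts and were tested. At an adjusted p under 0.05 (edgeR's quasi-likelihood test, adjusted over all 14085 genes tested) and a fold change of at least 2, the rule for a call, 17 were higher and 3 were lower in Pdk4SMKO and 10 were not called. These are 56.7% and 10.0% of the chains tested, against 32.8% higher and 26.5% lower among all genes tested. In either direction 66.7% of the chains and 59.3% of all genes were called. The median log2 fold change of the 30 chains was 1.21, beside 0.118 over all genes tested. The libraries of the genotypes did not overlap for 22 of the 30 chains (73.3%), 18 higher and 4 lower, compared with 81.8% of all genes. The chains called higher were *Itga1*, *Itga2*, *Itga2b*, *Itga3*, *Itga6*, *Itga8*, *Itga10*, *Itgb1*, *Itgb3*, *Itgb4*, *Itgb5*, *Lama1*, *Lama4*, *Lamb2*, *Lamb3*, *Lamc1* and *Lamc3*, and those called lower were *Itga4*, *Itga7* and *Itgb6*. The chains are long transcripts, and 27 of the 30 had a gene length of 4000 bases or more. Over the 6381 tested genes of that length the median log2 fold change was 0.353, with 36.7% higher and 21.6% lower, and the part of transcript length in the chains' counts was not tested further.

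**Figure D1:**
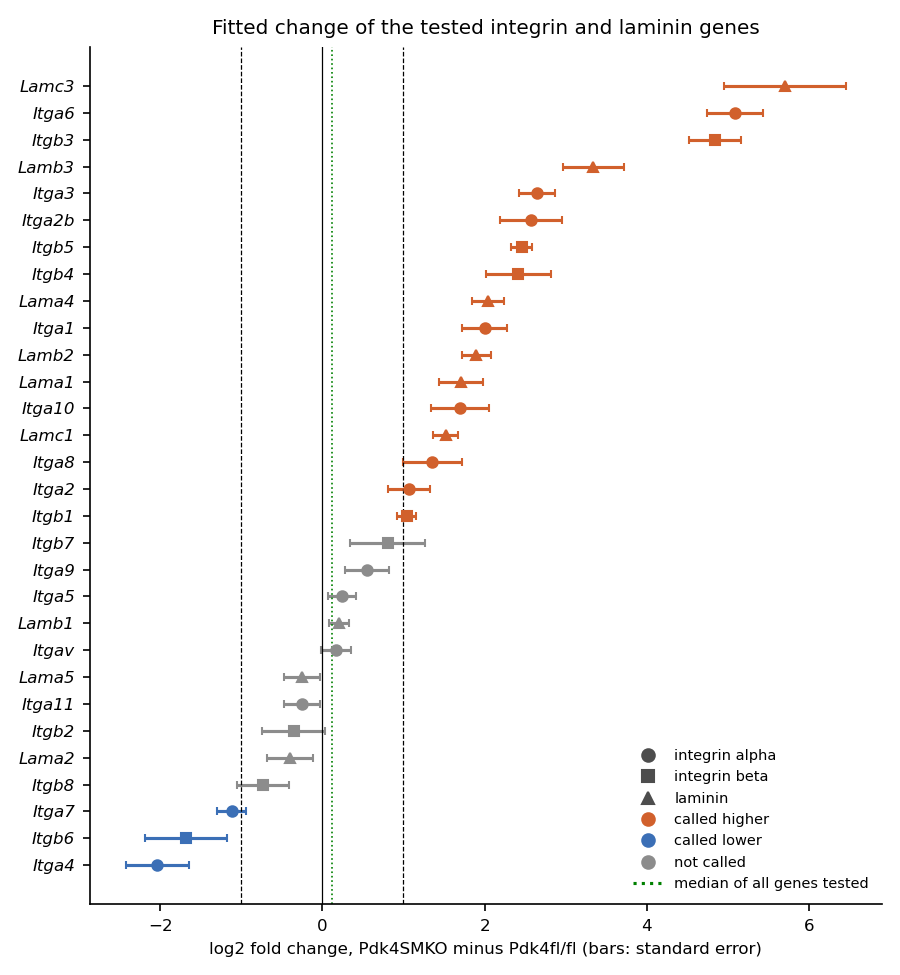
Fitted log2 fold change (Pdk4SMKO minus Pdk4fl/fl, horizontal axis) of the 30 tested chains, with circles for integrin alpha, squares for integrin beta and triangles for laminin chains, bars for the standard error, dashed lines at a fold change of 2 and a dotted line at the median of all genes tested (0.118). The 17 orange chains lie to the right of the dashed line at 1, up to 5.71 for *Lamc3*, and the 3 blue chains lie to the left of the line at -1.

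Among the receptors for laminin, the balance of the alpha chains turned from *Itga7* towards *Itga3* and *Itga6*. *Itga3*, a chain of laminin receptors in many adherent cells (MGP_C57BL6NJ_G0019369, chromosome 11, 100292495 to 100324566 of the C57BL/6NJ assembly, as are all positions of genes below), was at 70.8, 68.3 and 40.9 CPM in the Pdk4fl/fl libraries and 462, 348 and 318 CPM in the Pdk4SMKO libraries. Every Pdk4SMKO library lay far above every Pdk4fl/fl library, and the log2 fold change, given here and below with its standard error (SE), was 2.65 ± 0.23 (SE, adjusted p = 2.3e-06). *Itga6*, the laminin-binding partner of *Itgb1* and of *Itgb4* (MGP_C57BL6NJ_G0026245, chromosome 2, 74070454 to 74195557), was at 1.00, 0.988 and 0.227 CPM against 27.0, 21.8 and 30.0 CPM. The Pdk4fl/fl level lay close to the floor, with 3 counts in replicate 3, and the log2 fold change was 5.09 ± 0.34 (SE, adjusted p = 4.2e-07). It lay between 4.70 and 5.37 when single libraries were left out. *Itga7*, the laminin receptor chain of muscle cells (MGP_C57BL6NJ_G0018285, chromosome 10, 137208140 to 137232648), moved the other way, with 131, 163 and 99.1 CPM in Pdk4fl/fl and 57.6, 66.9 and 56.7 CPM in Pdk4SMKO. Its groups did not overlap either, and its log2 fold change was -1.12 ± 0.18 (SE, adjusted p = 2.0e-04). This call was lost by the fold change without Pdk4fl/fl replicate 2 (-0.92), with upper-quartile factors (-0.91) and with library size alone (-0.52). For *Itga3*, *Itga6* and *Itga7* alike an exact two-sided permutation test of the 6 libraries gave p = 0.1, the smallest p that 3 libraries against 3 allow, as it did for every chain whose groups did not overlap.

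The alpha chains that bind the RGD sequence of fibronectin and vitronectin split into abundant chains that were not called and scarce chains that rose. *Itga5*, the fibronectin receptor chain, was at 124, 123 and 83.9 CPM in Pdk4fl/fl and 149, 131 and 112 CPM in Pdk4SMKO libraries. *Itgav*, which pairs with *Itgb1*, *Itgb3*, *Itgb5*, *Itgb6* and *Itgb8*, was at 205, 173 and 138 CPM against 245, 169 and 167 CPM. For both genes the groups overlapped, with log2 fold changes of 0.24 ± 0.17 (SE, adjusted p = 0.215) and 0.17 ± 0.19 (SE, adjusted p = 0.423), and the value of *Itgav* fell to -0.03 without Pdk4SMKO replicate 1. *Itga2b*, the alpha chain of the platelet fibrinogen receptor, was at 0.976 ± 0.583 CPM (SD, n = 3) in Pdk4fl/fl and 6.01 ± 0.970 CPM (SD, n = 3) in Pdk4SMKO, a log2 fold change of 2.57 ± 0.38 (SE, adjusted p = 1.3e-04). It was 3.23 without Pdk4fl/fl replicate 2. The 8 platelet and megakaryocyte markers summed to 5.47 to 6.05 CPM in Pdk4fl/fl and 2.60 to 3.88 CPM in Pdk4SMKO, with *Gp9* and *Gp6* at 0 counts in all 6 libraries and *Pf4* at most 0.681 CPM. *Itga8*, an RGD-binding chain of mesenchymal and smooth muscle cells, rose from 0.618 ± 0.0769 to 1.61 ± 0.281 CPM (SD, n = 3 each, log2 fold change 1.36 ± 0.37, adjusted p = 0.0063).

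Of the 4 collagen receptor chains, which all pair with *Itgb1*, 3 were called higher and *Itga11*, the most abundant of them per length in Pdk4fl/fl (4.08 RPKM, against 1.67 RPKM for *Itga2*), was not called. *Itga1* (MGP_C57BL6NJ_G0021345, chromosome 13, 121136839 to 121295330), a receptor chain for basement membrane collagen, was at 5.00, 5.11 and 2.80 CPM in Pdk4fl/fl and 13.5, 22.8 and 16.0 CPM in Pdk4SMKO, a log2 fold change of 2.00 ± 0.28 (SE, adjusted p = 7.9e-05). The gene *Pelo* lies within its span on the same strand with 264 to 623 counts per library, and how reads of overlapping genes were assigned is not given in the sources used here. *Itga2*, a receptor chain for fibrillar collagen (MGP_C57BL6NJ_G0021344, chromosome 13, 121004738 to 121107656), was at 6.73, 6.70 and 7.57 CPM against 19.9, 9.75 and 14.2 CPM. The highest of its Pdk4SMKO values was that of replicate 1, and the log2 fold change of 1.07 ± 0.26 (SE, adjusted p = 0.00307) was 0.79 and no longer a call without that library. *Itga11*, the fibrillar collagen receptor chain of fibroblasts, was at 22.1, 20.9 and 19.8 CPM against 12.7, 24.0 and 16.0 CPM, so that the Pdk4SMKO libraries lay on both sides of the Pdk4fl/fl libraries (log2 fold change -0.25 ± 0.22, adjusted p = 0.308). *Itga10*, known from cartilage, rose from 1.22 ± 0.507 to 3.93 ± 0.454 CPM (SD, n = 3 each, log2 fold change 1.69, adjusted p = 0.00137).

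The remaining alpha chains are those of leukocytes and of a few other receptors, and they were scarce. *Itga4*, a receptor chain for VCAM1 and fibronectin that is prominent on lymphocytes (MGP_C57BL6NJ_G0026295, chromosome 2, 82148692 to 82241438), fell from 5.43 ± 0.835 CPM (SD, n = 3) to 1.31 ± 0.660 CPM (SD, n = 3), with a log2 fold change of -2.04 ± 0.39 (SE, adjusted p = 7.0e-04). It overlaps *Cerkl* on the opposite strand, which had at most 3 counts in Pdk4fl/fl and 15 to 26 in Pdk4SMKO libraries. Lymphocyte markers moved with it, since their list summed to 5.30 to 7.80 CPM in Pdk4fl/fl and 0.147 to 0.220 CPM in Pdk4SMKO, with 2 of 2 tested markers lower. *Ms4a1* was at 0 counts in every library and *Cd3e* at 0 in every Pdk4fl/fl library. *Itga9*, a receptor chain for tenascin and VCAM1, was at 3.54 ± 1.02 and 5.17 ± 0.464 CPM (SD, n = 3 each, log2 fold change 0.55, adjusted p = 0.0839), and it overlaps the antisense gene *Gm2415* (9 to 14 counts in Pdk4fl/fl and 35 to 74 in Pdk4SMKO). *Itgae* and *Itgal* did not pass the filter. Without the filter, *Itgae*, the partner of *Itgb7* on lymphocytes of epithelia, had a log2 fold change of 0.45 (edgeR's quasi-likelihood test, adjusted p = 0.655). *Itgal*, the chain of a lymphocyte receptor for ICAMs, had 3 counts in all Pdk4fl/fl and 25 in all Pdk4SMKO libraries, a ratio of CPM of 6.12 with a counting interval of 1.87 to 31.7. Without the filter it was called higher (edgeR's quasi-likelihood test, log2 fold change 2.48, adjusted p = 0.049), which made 18 chains higher. *Itgam* and *Itgad*, chains of myeloid cells, had no count in any library, which allows up to 0.132 to 0.227 CPM. Each of these overlaps, on the same strand, an unnamed protein-coding row whose description names *Itgam* or *Itgax*. The row described as *Itgam* had 2, 0 and 0 counts in Pdk4fl/fl and 10, 6 and 3 in Pdk4SMKO. The row described as *Itgax* had 0, 0 and 0 counts in Pdk4fl/fl and 12, 1 and 0 in Pdk4SMKO. The 0 counts of the named rows do not measure these genes on their own. No row is named *Itgax*.

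**Figure D2:**
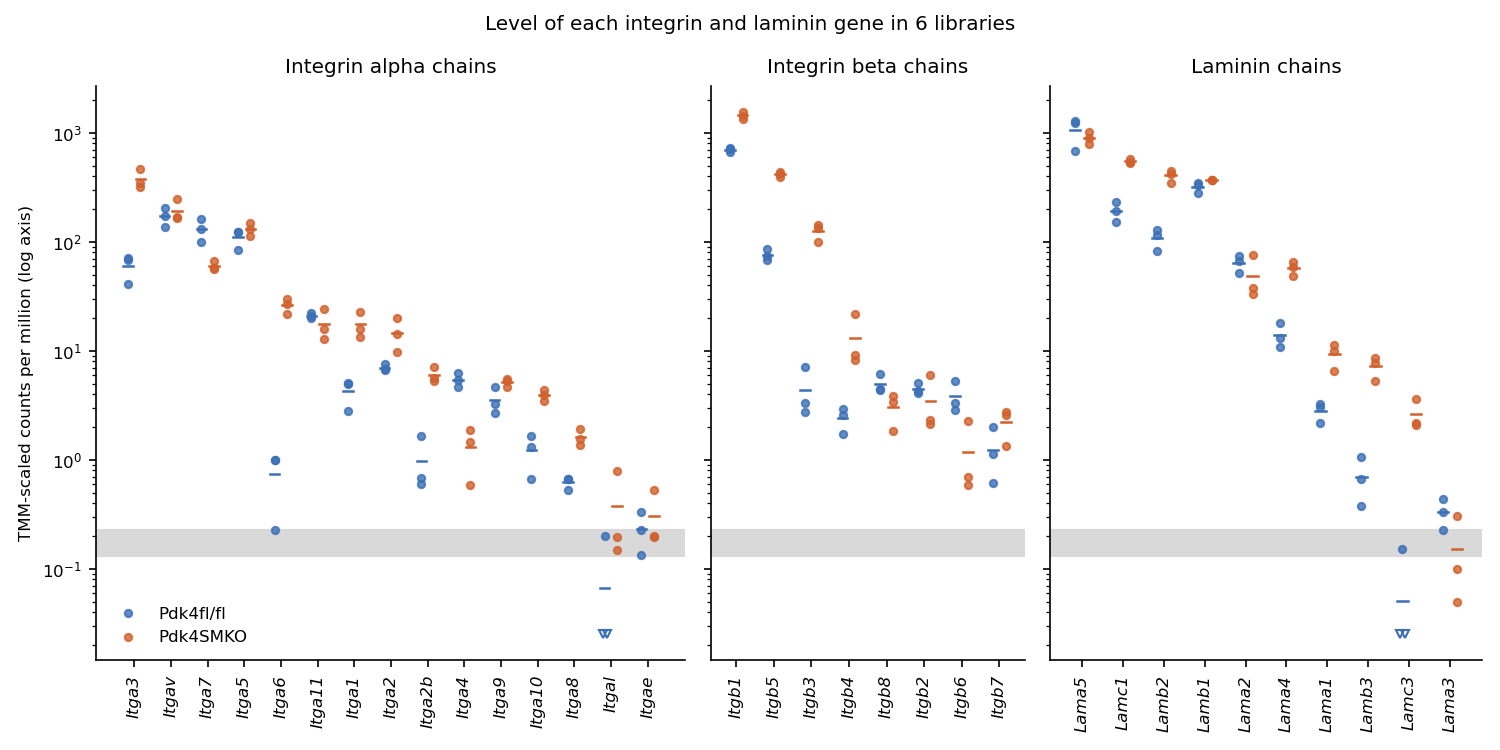
TMM-scaled CPM (log axis) of 33 of the 35 chains in the 6 libraries, with points for libraries, short lines for means, open triangles at the bottom for 0 counts and a grey band for the level of 3 counts (0.132 to 0.227 CPM). *Itgb1* and *Lama5* head their families, *Itga6*, *Lamc3* and *Itgb3* show wide gaps between the genotypes, and *Itgav*, *Itga5* and *Lama5* overlap. *Itgam* and *Itgad*, at 0 counts throughout, are left out.

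Of the beta chains, *Itgb3* rose most, and *Itgb1*, *Itgb4* and *Itgb5* rose as well. *Itgb1*, the common partner of 12 of the alpha chains (MGP_C57BL6NJ_G0034793, chromosome 8, 136931962 to 136983308), was at 721, 667 and 716 CPM in Pdk4fl/fl and 1549, 1341 and 1437 CPM in Pdk4SMKO. It was the most abundant integrin chain in every library per length, and its log2 fold change of 1.04 ± 0.12 (SE, adjusted p = 2.1e-05) lay just past the limit of 1 on the log2 scale, at 0.996 without Pdk4SMKO replicate 1. *Itgb3*, the beta chain of the vitronectin receptor and of the platelet fibrinogen receptor (MGP_C57BL6NJ_G0019670, chromosome 11, 111108808 to 111169494), was at 7.13, 3.29 and 2.72 CPM in Pdk4fl/fl and 100.4, 134 and 144 CPM in Pdk4SMKO. The lowest Pdk4SMKO library was more than 10 times the highest Pdk4fl/fl library, and the log2 fold change was 4.84 ± 0.32 (SE, adjusted p = 3.9e-07). *Itgb5*, a further vitronectin receptor chain (MGP_C57BL6NJ_G0023175, chromosome 16, 32771600 to 32901745), was at 85.5, 73.6 and 68.6 CPM against 421, 434 and 396 CPM, a log2 fold change of 2.46 ± 0.13 (SE, adjusted p = 8.6e-08). A processed pseudogene of *Itgb5* is listed apart, with 18, 9 and 8 counts in Pdk4fl/fl and 130, 123 and 87 in Pdk4SMKO libraries, and was called higher as well (log2 fold change 2.81), and how reads shared with the gene were assigned is not given in the sources used here.

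The other beta chains had lower levels and moved in both directions. *Itgb4*, the beta chain of hemidesmosomes and the partner of *Itga6* (MGP_C57BL6NJ_G0019801, chromosome 11, 123711980 to 123749987), was at 2.60, 2.91 and 1.74 CPM in Pdk4fl/fl and 21.7, 9.21 and 8.19 CPM in Pdk4SMKO. Replicate 1 of Pdk4SMKO held 2.50 times the mean of the other 2 libraries, and the log2 fold change of 2.42 ± 0.40 (SE, adjusted p = 2.8e-04) was 1.84 without it. *Itgb6* (MGP_C57BL6NJ_G0026181, chromosome 2, 61981165 to 62109700), a TGF-beta-activating chain of epithelia, fell from 3.84 ± 1.30 CPM to 1.19 ± 0.949 CPM (SD, n = 3 each), with a log2 fold change of -1.68 ± 0.51 (SE, adjusted p = 0.0115). It was -2.57 without Pdk4SMKO replicate 1, and it was not called without Pdk4fl/fl replicate 2 (-1.35, adjusted p = 0.0583) or with library size alone (-1.07, adjusted p = 0.0808). *Itgb8*, which also binds latent TGF-beta, was at 5.00 ± 0.992 and 3.03 ± 1.06 CPM (SD, n = 3 each), and its groups did not overlap (log2 fold change -0.73 ± 0.32, adjusted p = 0.0573). *Itgb2*, the beta chain of leukocytes, was at 4.13, 4.28 and 5.07 CPM against 6.02, 2.34 and 2.11 CPM, with Pdk4SMKO replicate 1 at 2.70 times the mean of the other 2 libraries. Its log2 fold change of -0.36 ± 0.39 (SE, adjusted p = 0.422) was -0.9996 without that library. *C1qa*, *C1qb*, *Mrc1*, *Adgre1* and *Tyrobp*, markers of macrophages, had 0 counts in every Pdk4fl/fl library and their highest value in Pdk4SMKO replicate 1 (*C1qb* at 7.46, 3.43 and 2.06 CPM). The macrophage list as a whole (6 of 7 tested markers higher, 1 lower) summed to 21.4 to 38.2 CPM in Pdk4fl/fl, nearly all of it *Cd68*, and to 11.9 to 37.2 CPM in Pdk4SMKO. *Itgb7*, the partner of *Itga4* and *Itgae*, was at 1.24 ± 0.692 and 2.21 ± 0.771 CPM (SD, n = 3 each, log2 fold change 0.80, adjusted p = 0.133), and was called higher without Pdk4fl/fl replicate 2 (1.34).

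Of the laminin alpha chains, the most abundant was not called and the scarcer *Lama4* and *Lama1* rose. *Lama5* (MGP_C57BL6NJ_G0027410, chromosome 2, 192071847 to 192126641), the laminin alpha chain found in most adult basement membranes, was at 1295, 1227 and 679.8 CPM in Pdk4fl/fl and 1013, 896 and 788 CPM in Pdk4SMKO. The groups overlapped because of Pdk4fl/fl replicate 3, and the log2 fold change of -0.25 ± 0.22 (SE, adjusted p = 0.326) corresponded to a mean that was 84.2% of that of Pdk4fl/fl. Without that library the log2 fold change was -0.50 ± 0.13 (SE, adjusted p = 0.00563), short of a call by its size, and without Pdk4fl/fl replicate 1 it was -0.095. *Lama4*, the alpha chain of vascular and mesenchymal basement membranes (MGP_C57BL6NJ_G0017545, chromosome 10, 38606484 to 38763013), was at 18.1, 13.1 and 10.8 CPM against 48.3, 65.8 and 58.9 CPM. Its groups were well apart, at a log2 fold change of 2.04 ± 0.20 (SE, adjusted p = 6.5e-06). *Lama2*, the alpha chain of the muscle basement membrane, was at 64.4 ± 11.5 and 48.9 ± 23.7 CPM (SD, n = 3 each, log2 fold change -0.40, adjusted p = 0.224), with Pdk4SMKO replicate 1 at 2.16 times the mean of the other 2 libraries. *Lama1*, a chain of embryonic basement membranes, rose from 2.83 ± 0.561 to 9.29 ± 2.42 CPM (SD, n = 3 each, log2 fold change 1.71 ± 0.28, adjusted p = 2.3e-04). *Lama3*, the alpha chain under stratified epithelia, was at 0.227 to 0.439 CPM in Pdk4fl/fl and 0.0491 to 0.307 CPM in Pdk4SMKO and did not pass the filter (log2 fold change -1.04 and adjusted p = 0.355 in edgeR's test without it).

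Per length the order of the laminin beta chains differed between the genotypes, as *Lamb2* rose and *Lamb1* was not called. On the CPM scale *Lamb1* stayed above *Lamb2* in Pdk4SMKO replicate 3. *Lamb2*, the beta chain of mature vascular and neuromuscular basement membranes (MGP_C57BL6NJ_G0035793, chromosome 9, 113454178 to 113464972), was at 129, 115 and 82.2 CPM in Pdk4fl/fl and 422, 447 and 349 CPM in Pdk4SMKO, a log2 fold change of 1.90 ± 0.18 (SE, adjusted p = 4.6e-06). *Lamb1* (MGP_C57BL6NJ_G0020049, chromosome 12, 30106032 to 30170250), the more general beta chain, was at 348, 331 and 279 CPM against 368, 369 and 369 CPM. The 3 Pdk4SMKO values of *Lamb1* were nearly equal and all above those of Pdk4fl/fl, but the log2 fold change was 0.21 ± 0.12 (SE, adjusted p = 0.141). *Lamb3*, an epithelial chain, was at 0.701 ± 0.346 CPM (SD, n = 3) in Pdk4fl/fl and 7.21 ± 1.69 CPM (SD, n = 3) in Pdk4SMKO, a log2 fold change of 3.34 ± 0.38 (SE, adjusted p = 1.7e-05). Its span overlaps *Hsd11b1* (5 or 6 counts in Pdk4fl/fl and 28 to 45 in Pdk4SMKO libraries) and *G0s2* (0 against 12 to 20 counts) on the opposite strand, both also with more counts in Pdk4SMKO. Of the 7 epithelial and keratinocyte markers found, *Cdh1* made up most of a sum of 2.35 to 3.53 CPM in Pdk4fl/fl and 50.1 to 110.2 CPM in Pdk4SMKO, and both markers tested were higher (*Cdh1* at a log2 fold change of 5.06 and *Trp63*, a transcription factor of basal epithelia, at 4.53). *Trp63* was at 0.133, 0.110 and 0 CPM in Pdk4fl/fl and 0.834, 3.93 and 1.67 CPM in Pdk4SMKO. *Krt14* went the other way, with 4, 7 and 8 counts in Pdk4fl/fl and 2, 1 and 0 in Pdk4SMKO. *Krt15* had 0 counts in every Pdk4fl/fl library and 4, 1 and 1 in Pdk4SMKO, and neither keratin passed the filter. *Dsg3* and *Esrp1* were at 0 counts in every library and *Epcam* did not pass 0.0439 CPM.

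The gamma chains *Lamc1* and *Lamc3* rose. *Lamc1* (MGP_C57BL6NJ_G0016998, chromosome 1, 163481385 to 163600562), the gamma chain of nearly all laminins, was at 232, 191 and 151 CPM in Pdk4fl/fl and 575, 544 and 527 CPM in Pdk4SMKO, a log2 fold change of 1.52 ± 0.16 (SE, adjusted p = 1.0e-05). *Lamc3*, a gamma chain known from retina and brain (MGP_C57BL6NJ_G0026011, chromosome 2, 31225682 to 31291124), had 2 counts in the Pdk4fl/fl libraries together, both in replicate 3, and 168 in the Pdk4SMKO libraries. The ratio of its CPM was 61.7, with a counting interval (95%, exact) of 16.8 to 513. It was called (log2 fold change 5.71, adjusted p = 5.3e-05), but the fitted value moved from 5.08 without Pdk4fl/fl replicate 2 to 8.66 without Pdk4fl/fl replicate 3. Its span overlaps that of *Golga2*, which had 1577 to 2562 counts per library.

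Promoters are shown for *Itga3* and *Itgb5*, both called higher, and for *Lamb1* and *Lamb2*, whose order per length differed between the genotypes. Each run spans 250 bases before to 50 bases after a RefSeq transcription start on GRCm38.p6, written 5′ to 3′ on the gene's strand. Capitals mark matches to the Sp-family box GGGCGG, the TATA box TATAAA, the AP-1 site TGANTCA or a CArG box, the site of serum response factor in smooth muscle genes, on either strand. *Itga3* has a further start downstream, and its upstream start is shown. The windows are chr11:95076665-95076964 on the minus strand for *Itga3* and, on the plus strand, chr16:33829415-33829714 for *Itgb5*, chr12:31265043-31265342 for *Lamb1* and chr9:108479612-108479911 for *Lamb2*.
Itga3: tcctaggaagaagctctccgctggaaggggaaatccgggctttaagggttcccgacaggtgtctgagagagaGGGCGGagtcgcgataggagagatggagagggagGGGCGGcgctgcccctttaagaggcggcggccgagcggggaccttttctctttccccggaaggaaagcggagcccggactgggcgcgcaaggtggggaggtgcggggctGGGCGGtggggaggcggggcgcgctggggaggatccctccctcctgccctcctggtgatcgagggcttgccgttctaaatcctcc
Itgb5: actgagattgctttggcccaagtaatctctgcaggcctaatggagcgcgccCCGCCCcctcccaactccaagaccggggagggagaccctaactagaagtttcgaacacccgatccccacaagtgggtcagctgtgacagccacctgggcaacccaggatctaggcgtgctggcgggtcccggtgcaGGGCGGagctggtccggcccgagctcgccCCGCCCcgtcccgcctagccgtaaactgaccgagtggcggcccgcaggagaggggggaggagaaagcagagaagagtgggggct
Lamb1: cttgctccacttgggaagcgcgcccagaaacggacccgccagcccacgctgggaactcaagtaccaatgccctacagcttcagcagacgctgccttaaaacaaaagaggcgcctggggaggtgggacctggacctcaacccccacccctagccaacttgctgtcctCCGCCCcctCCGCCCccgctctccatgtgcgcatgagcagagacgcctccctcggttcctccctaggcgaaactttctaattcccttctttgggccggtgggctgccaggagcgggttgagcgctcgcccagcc
Lamb2: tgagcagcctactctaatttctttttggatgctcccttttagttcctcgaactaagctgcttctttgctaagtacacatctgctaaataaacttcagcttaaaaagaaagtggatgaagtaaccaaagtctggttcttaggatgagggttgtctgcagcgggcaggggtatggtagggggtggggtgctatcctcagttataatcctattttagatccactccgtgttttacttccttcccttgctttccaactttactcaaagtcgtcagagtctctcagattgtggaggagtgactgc
The promoter of *Itga3* holds GGGCGG 3 times, that of *Itgb5* 3 times and that of *Lamb1* 2 times. That of *Lamb2* holds none of these 4 motifs and has a GC content of 44.0% against 63.7% for *Lamb1*. *Itga3* and *Itgb5* do not stand for all chains called higher. Of the others with a matched promoter, *Itga2* and *Itgb1* hold GGGCGG 1 time each. *Itga1*, *Itga2b*, *Itga8*, *Itga10*, *Lamb2* and *Lamb3* hold it 0 times, and the uncalled *Lama5* holds it 4 times. RefSeq promoters were matched for 22 of the 35 chains, with 25 starts. GGGCGG occurs in 12 of the 25 (48%) and in 35.7% of all 32851 promoters in the table, and TATAAA in 0 of 25 and in 13.6%. TGANTCA occurs in 2 of 25 (8%) and in 7.81%, and a CArG box in 2 of 25 (8%, *Itgb6* and *Lama2*) and in 1.63%. The E-box CANNTG, which is not capitalised, occurs in 21 of 25 (84.0%) and in 72.3%. A match is a run of letters in this window and says nothing about whether a factor is bound.

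Per length, the composition of the integrin alpha and beta chains and of the laminin alpha and beta chains differed between the genotypes. The alpha chains were led by *Itga7* in Pdk4fl/fl libraries, at 32.4%, 38.8% and 34.6% of the summed RPKM (CPM per kilobase of gene length) of the alpha chains, and by *Itga3* in Pdk4SMKO libraries, at 48.1%, 43.6% and 43.9%. In the opposite genotype *Itga7* held 8.53%, 11.9% and 11.1%, and *Itga3* 12.3%, 11.4% and 10.0%, so that the ranges were far apart for both. The shares of *Itga5* (27.2% ± 0.767 and 20.5% ± 0.660, SD, n = 3 each) and *Itgav* (17.4% ± 1.88 and 12.3% ± 1.16) were smaller in Pdk4SMKO although their levels were not called. The sum of the alpha chains was 92.3 ± 18.1 RPKM in Pdk4fl/fl and 145 ± 21.1 RPKM in Pdk4SMKO. A share depends on how many isoforms the gene length spans, and without division by length *Itgav* led the alpha chains of Pdk4fl/fl, at 33.3% of the summed CPM, with *Itga7* at 25.2%. *Itga3* led those of Pdk4SMKO on both scales, at 43.8% of the summed CPM.

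Among the beta chains *Itgb1* led in all libraries, at 86.6% ± 1.28 of the summed RPKM in Pdk4fl/fl and 70.2% ± 2.04 in Pdk4SMKO (SD, n = 3 each). *Itgb5* went from 11.4% ± 1.06 to 24.7% ± 1.71 and *Itgb3* from 0.371% ± 0.189 to 4.27% ± 0.918, and the sum of the beta chains from 199 ± 8.29 to 503 ± 22.9 RPKM. *Lama5* made up 94.4% ± 0.965 and 90.02% ± 0.103 of the laminin alpha chains. *Lama4* held less than *Lama2* in Pdk4fl/fl (1.201% ± 0.226 and 4.11% ± 0.725). In Pdk4SMKO it held 5.55% ± 1.29 against 3.32% ± 1.2, although in replicate 1 *Lama2* (4.70%) was above *Lama4* (4.05%). *Lamb1* held 62.4%, 64.1% and 67.8% of the laminin beta chains in Pdk4fl/fl and 34.7%, 33.6% and 39.2% in Pdk4SMKO, and *Lamb2* 37.3%, 35.7% and 32.1% against 64.1%, 65.7% and 59.6%. The order of *Lamb1* and *Lamb2* was thus reversed in all 3 Pdk4SMKO libraries. By CPM without length their mean shares in Pdk4SMKO were 47.3% and 51.8%, with *Lamb1* ahead in replicate 3 (50.9% and 48.1%). The summed laminin alpha chains were at 99.1 ± 30.6 and 87.7 ± 11 RPKM, whereas the beta chains went from 50.6 ± 7.66 to 105.5 ± 8.18 RPKM.

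**Figure D3:**
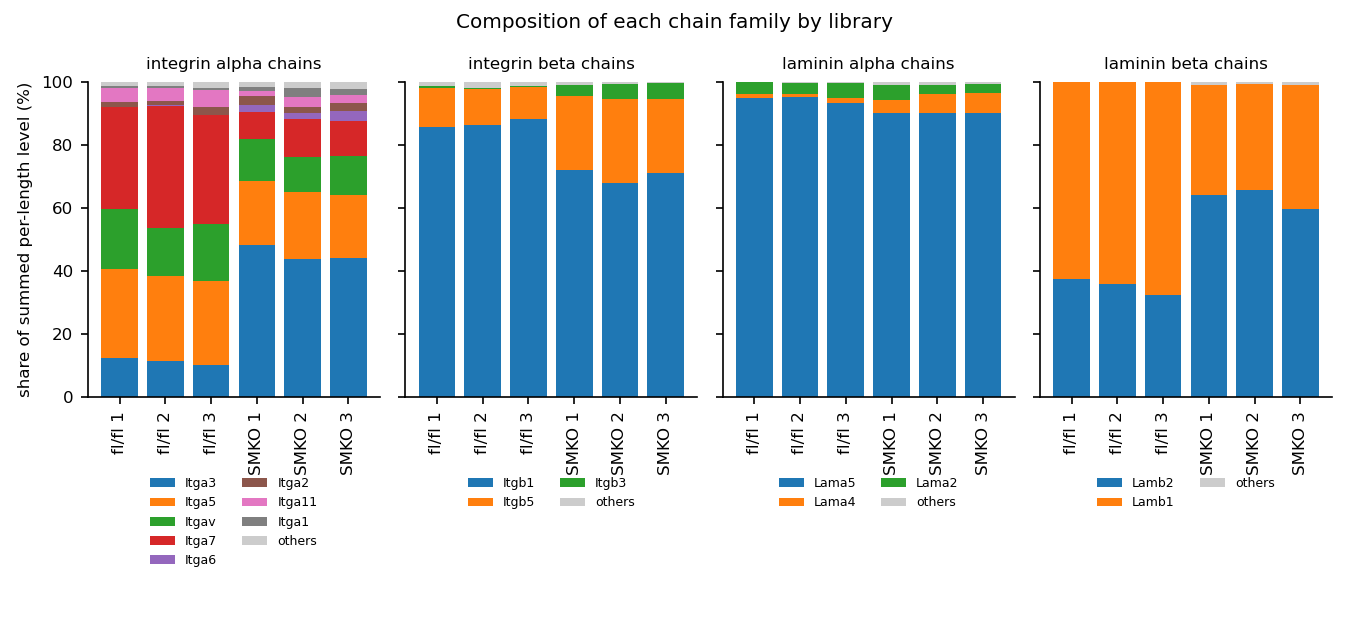
Share of each chain in the summed per-length level (RPKM) of its family, in percent, as stacked bars for each of the 6 libraries. *Itga7* (red) is the largest part of the alpha chains in the Pdk4fl/fl libraries and *Itga3* (blue) in the Pdk4SMKO libraries, and *Lamb2* (blue) exceeds *Lamb1* (orange) in the Pdk4SMKO libraries.

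The transcripts were next read as known receptors and trimers, taking an assembly as possible where each of its chains exceeded 3 counts in every library of a genotype. Of 24 known integrin heterodimers, 23 have a row for both chains, and 17 of these were possible in Pdk4fl/fl and 20 in Pdk4SMKO. The 3 possible in Pdk4SMKO alone were *Itga6* with *Itgb1*, *Itga6* with *Itgb4* and *Itgae* with *Itgb7*. The last rests on 4 to 12 counts of *Itgae* in Pdk4SMKO and 2 to 6 in Pdk4fl/fl. The others rest on *Itga6*, which had 15, 18 and 3 counts in Pdk4fl/fl and so missed the rule in replicate 3 alone. Its Pdk4fl/fl mean (0.738 CPM) was above that of *Itga8* (0.618 CPM), which passed, so these receptors are not shown to be absent from Pdk4fl/fl. The scarcer chain sets a ceiling on a heterodimer at the level of RNA. For *Itgav* with *Itgb3* that chain was *Itgb3* in Pdk4fl/fl (0.743 RPKM) and *Itgav* in Pdk4SMKO (18 RPKM), and for *Itga3* with *Itgb1* it was *Itga3* in both (10.5 and 65.9 RPKM). The ceiling of *Itga7* with *Itgb1* fell from 32.6 to 15.1 RPKM and that of *Itga5* with *Itgb1* was 25.1 and 29.8 RPKM. All 8 laminin trimers considered, which hold *Lamc1*, were possible in both genotypes. The trimer of *Lama5*, *Lamb2* and *Lamc1* had the highest ceiling in Pdk4SMKO (66.3 RPKM, from 17.9), and that of *Lama5*, *Lamb1* and *Lamc1* in Pdk4fl/fl (23.1 RPKM, against 37.7 in Pdk4SMKO).

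**Figure D4:**
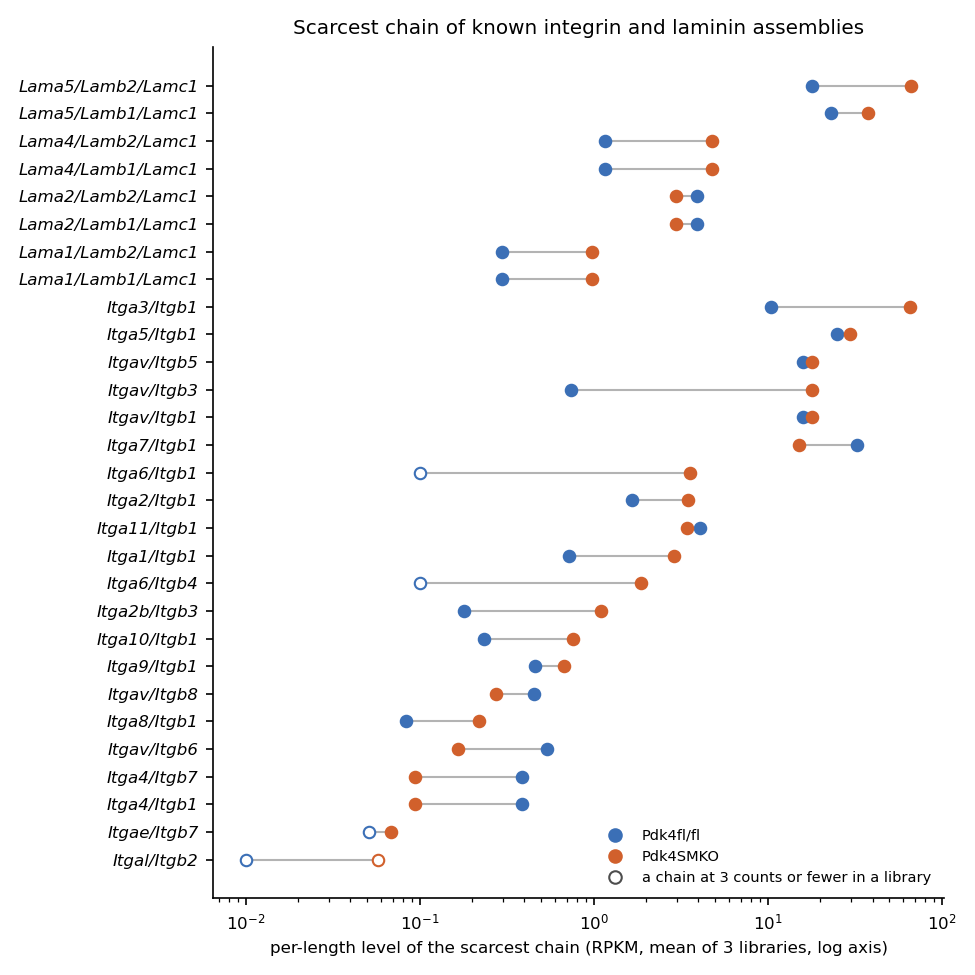
Mean per-length level (RPKM, log axis, n = 3 libraries) of the scarcest chain of each laminin trimer and integrin heterodimer, blue for Pdk4fl/fl and orange for Pdk4SMKO, with open circles where a chain had 3 counts or fewer in a library. The points of *Itgav* with *Itgb3* and of *Itga6* with *Itgb1* show wide gaps, and those of *Itga7* with *Itgb1* and *Itga4* with *Itgb1* run the other way.

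The partners of these chains were counted in 3 lists of textbook genes, which were chosen with earlier results of these data known. Of 19 genes of the basement membrane and of other laminin receptors, 18 were found and tested, and 14 were higher and 2 lower in Pdk4SMKO (median log2 fold change 2.00). That is 77.8% higher and 11.1% lower, beside 32.8% and 26.5% of all genes tested. *Col4a3* and *Col4a4*, collagen chains of specialised basement membranes, showed the largest rises, from 0, 0.329 and 0.0757 to 20.6, 26.3 and 20.8 CPM (log2 fold change 7.17) and from 0.467, 0.110 and 0.151 to 29.6, 34.3 and 29.3 CPM (log2 fold change 6.99). *Sdc4*, a syndecan that acts with integrins at focal adhesions, fell from 1019.6 ± 36.7 to 419 ± 55.0 CPM (SD, n = 3 each, log2 fold change -1.28). *Col18a1*, the precursor of endostatin, fell from 57.04 ± 10.4 to 24.1 ± 2.95 CPM (SD, n = 3 each, log2 fold change -1.24). With library size alone neither of the latter pair was called.

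Of 22 other integrin ligands, 19 were tested, of which 12 were higher and 4 lower (median log2 fold change 2.05), or 63.2% and 21.1% beside 32.8% and 26.5% of all genes. The connective tissue growth factor gene *Ccn2* rose from 28.9, 23.5 and 35.2 to 1920.5, 1099 and 1154 CPM (log2 fold change 5.58), and *Emilin1*, an elastic fibre glycoprotein, from 5.40, 4.50 and 6.73 to 204, 264 and 174 CPM (log2 fold change 5.28). *Postn*, the matricellular protein periostin, fell from 653, 595 and 706 to 11.6, 11.7 and 10.2 CPM (log2 fold change -5.87). *Madcam1*, the ligand of the receptor of *Itga4* and *Itgb7*, was at 45.5, 56.4 and 54.2 CPM in Pdk4fl/fl and had no count in any Pdk4SMKO library. Each of these 4 genes had groups that did not overlap, as did 81.8% of all genes tested, and the 4 were picked for their extreme fold changes.

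In the intracellular adhesion machinery most genes were not called. Of its 30 listed genes, 27 were tested, and 9 were higher, 2 lower and 16 not called (median log2 fold change 0.17), or 33.3% higher and 7.41% lower beside 32.8% and 26.5% of all genes. *Pxn*, which encodes the focal adhesion adaptor paxillin, fell from 776, 852 and 586 to 119, 125 and 116 CPM (log2 fold change -2.62), and *Bcar1*, which encodes the adaptor p130Cas, from 542, 542 and 326 to 171, 155 and 139 CPM (log2 fold change -1.60). *Lims2*, a member of the complex with integrin-linked kinase, rose from 0.600, 0.604 and 0.303 to 15.5, 17.4 and 12.1 CPM (log2 fold change 4.85), and *Ptk2b*, a focal adhesion kinase family member, from 3.40, 3.73 and 2.35 to 71.0, 55.9 and 55.6 CPM (log2 fold change 4.25). For these 4 genes, picked in the same way, the groups were apart in all 6 libraries, as they were for 81.8% of all genes tested.

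**Figure D5:**
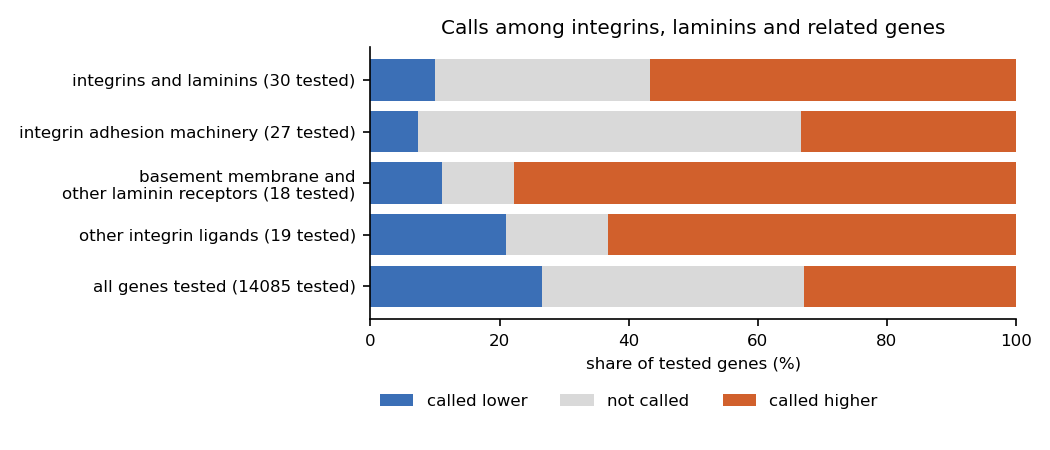
Share of tested genes called lower (blue), not called (grey) and called higher (orange) in Pdk4SMKO, in percent, for the integrins and laminins, 3 lists of related genes and all genes tested. The adhesion machinery has a share of higher genes (33.3%) close to that of all genes (32.8%), and the other lists have larger ones.

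Single libraries carried part of the spread within each genotype. In Pdk4fl/fl replicate 3 the chains had a median ratio of 0.706 to the mean of the other 2 libraries, and 10 of 30 (33.3%) lay under 1/1.5 of it, against a median of 1.00 and 13.2% over all genes tested. Over tested genes of 4000 bases or more the median ratio in this library was 0.918, and over shorter genes 1.09. In Pdk4SMKO replicate 1 the median ratio of the chains was 1.15, and 7 of 30 (23.3%) exceeded the other libraries' mean by more than 1.5 times, against 10.3% of all genes. When single libraries were left out, between 15 and 18 of the chains were higher and between 1 and 3 lower.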

How the data were processed

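RNA from MASMCs of 2 genotypes, 3 libraries each, was sequenced by the study. The table the authors deposited holds raw counts of reads for each gene, unscaled, and a gene length in bases. The aligner, the counter and the use of strand are not given in the sources used here. The submitters' processing notes name GRCm39, while the gene identifiers are those of the C57BL/6NJ strain annotation, and positions of genes are printed as deposited. The labels and the study's methods name different library kits.

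The fits used R 4.3.3 and edgeR 4.0.16 (filterByExpr, TMM factors, quasi-likelihood test on genotype, Benjamini-Hochberg adjustment over 14085 genes) and in Python 3.11.15 with pandas 2.3.3 and scipy 1.17.1. Genes were called at an adjusted p under 0.05 where the fold change was 2 or more, up or down. CPM are counts-per-million of the TMM-scaled library size, and RPKM are these CPM divided by the deposited gene length in kilobases. Totals ranged from 16526044 to 22481670 counts. Single values also had an exact two-sided permutation test over the libraries. The genotype label of each sample gave its group.

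The chains, the marker lists, the lists of related genes and the assemblies were chosen with earlier results of these data known. Of the 36 chains, 1 is not reported here and enters no count over the chains or assemblies, and the other 35 are named. Values of each library are given for called chains that averaged 10 CPM or more in either genotype and for uncalled chains among the 5 most abundant per length of their family. From each list of related genes, up to 2 called genes with the most negative and 2 with the most positive fold change at 10 CPM or more are named. *Xist*, the marker genes and the genes that overlap a chain were named after their values were seen. *Itgb1bp1*, *Ntn4*, *Krt5* and *Ly6c1* were not matched, and *Ccn1* and *Ccn2* were matched by their older symbols. Promoter sequences came from RefSeq on GRCm38.p6, and protein sequences were not used here.

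Alternatives were scaling by RLE, by upper quartile or by library size alone, DESeq2 1.42.0, no filter, at least 10 counts in every library, protein-coding genes alone, other thresholds, the replicate number as a block, each library left out in turn, and shares without gene length. On simulated counts with 200 genes changed, the edgeR fit recovered 197 and called 5 others among 14012 tested, and it called 0 when none was changed. The simulation gave all genes the same dispersion and changed few of them, whereas 59.3% of the genes tested were called in the data. It therefore checks that the fit runs as intended and does not measure the error rate or the scaling of the calls above.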

Additional observations from a re-analysis of the deposited data

How the results depend on the processing

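The direction of 26 of the 30 chains was kept under RLE, upper-quartile and library-size scaling and in DESeq2, and 16 of the 20 called chains kept their call in every alternative fit that tested them. With library size alone the median log2 fold change of all genes moved by 0.605 and with upper-quartile factors by 0.211, so that changes there are relative to that shift. With library size alone 1 chain was lower and 19 were higher, and 2390 genes were lower and 6184 higher. The chains that turned under that setting were *Lama5* (0.35), *Lama2* (0.21), *Itga11* (0.35) and *Itgb2* (0.26), none of them called, and *Itga9* (1.15) and *Itgb7* (1.40) were called there. Upper-quartile factors gave 3220 genes lower and 5122 higher. At a fold change of at least 4, 1 chain was lower and 10 were higher, with 1765 and 2645 genes over all. With each library left out in turn, 1 to 3 chains were lower (1 without Pdk4fl/fl replicate 2), 15 to 18 were higher, and *Itgav* lay between -0.026, without Pdk4SMKO replicate 1, and 0.31. The cause of these changes was not tested. At least 10 counts in every library left 12 chains higher and 3 lower, since fewer genes were tested, and DESeq2 called 17 higher and 3 lower. The deviations from the group means correlated by 0.0396, 0.0604 and 0.176 between libraries of the same number. Libraries of different numbers were not compared, so these values cannot decide whether the numbers mark a pairing. With the replicate block, 17 chains were higher and 3 lower, and 4577 genes were higher and 3704 lower. The block moved the SE of single chains in both directions, from 0.227 to 0.144 for *Itga3* and from 0.320 to 0.339 for *Itgb3*. *Lama2* had an adjusted p of 0.0324 there (edgeR's quasi-likelihood test, log2 fold change -0.48), short of a call by its fold change. Depth limits statements on *Itgae*, *Itgal*, *Itgam*, *Itgad*, *Lama3* and the Pdk4fl/fl level of *Lamc3*, which lay near or under 3 counts.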
